A study of Mus musculus with 6 samples.

Results

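A set of 10 G protein-coupled receptor genes that tune hormone release was followed in pancreatic islets, small clusters of endocrine cells, from mice with and without Sec16b. They were taken by gene symbol from the deposited table of normalized read counts. All 10 of 10 named genes were found among its 18437 genes, and all 10 were among the 16042 genes that passed the filter on low values. The tested islets came from 30-week-old male Sec16b-/- mice (knockout, 3 libraries), set against islets of 30-week-old male Sec16b+/+ mice (wild type, 3 libraries). Sec16b encodes a scaffold protein of endoplasmic reticulum exit sites, where newly made secretory and membrane proteins leave in coated vesicles. Neither a transgene nor a treatment is named in the labels. They also do not say whether a library is 1 animal or a pool, and p-values reflect only the spread among the libraries at hand.

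Islet receptors of this class act through 3 kinds of G protein. Receptors coupled to Gs raise cyclic AMP and so amplify glucose-stimulated insulin release. Those coupled to Gq release calcium from internal stores through phospholipase C, and those coupled to Gi or Go lower cyclic AMP and hyperpolarize the cell. The incretins GLP-1 and GIP, gut hormones released after a meal, use the Gs route, while noradrenaline, somatostatin and galanin restrain secretion through Gi/o.

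The table's genes held between 22071895 and 24887766 reads in knockout libraries and between 22566274 and 26806787 in wild type libraries. Sec16b had normalized read counts of 553, 433 and 749.5 in knockout libraries, against 1655, 773 and 1786 in wild type libraries, without overlap (log2 fold change −1.22, SE 0.35, limma adjusted p = 0.993). Which part of the gene was deleted is not stated in the labels. Islet identity was clear in all libraries. Ins1 was at 468979 or above and Gcg at 157662 or above in each of the 6. Cells from outside the islet varied widely. The 21 acinar enzyme and factor genes took 16.2%, 7.79% and 0.726% of reads in knockout replicates 1, 2 and 3, against 5.31%, 1.17% and 3.26% in wild type replicates 1, 2 and 3. The mean log2 level of the lymphocyte genes ran from 6.88 to 9.59 in knockout libraries and from 3.86 to 9.99 in wild type libraries. These are bulk samples, in which fewer cells of a type and less RNA per cell cannot be told apart.

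No receptor gene in the set passed the test between genotypes. Limma, a linear model fitted across all genes on log2(value + 1), called 0 of the 10 at a Benjamini-Hochberg adjusted p under 0.05. It called 0 of all 16042 genes, or 0%. Adjusted p-values of the 10 ran from 0.993 to 0.994. The log2 fold change of knockout over wild type lay above 0 for 5 receptors and below 0 for 5, against 49.4% of all genes above 0. Its median was 0.01, against −0.0030 over all genes tested. At an unadjusted p under 0.05 there were 0 of the 10, against 3.08% of all genes. In 1 of the 10, Gcgr, the knockout values did not overlap the wild type values, against 9.08% of all genes. The shares without overlap and above 0 were close to that of the whole table.

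**Figure D1:**
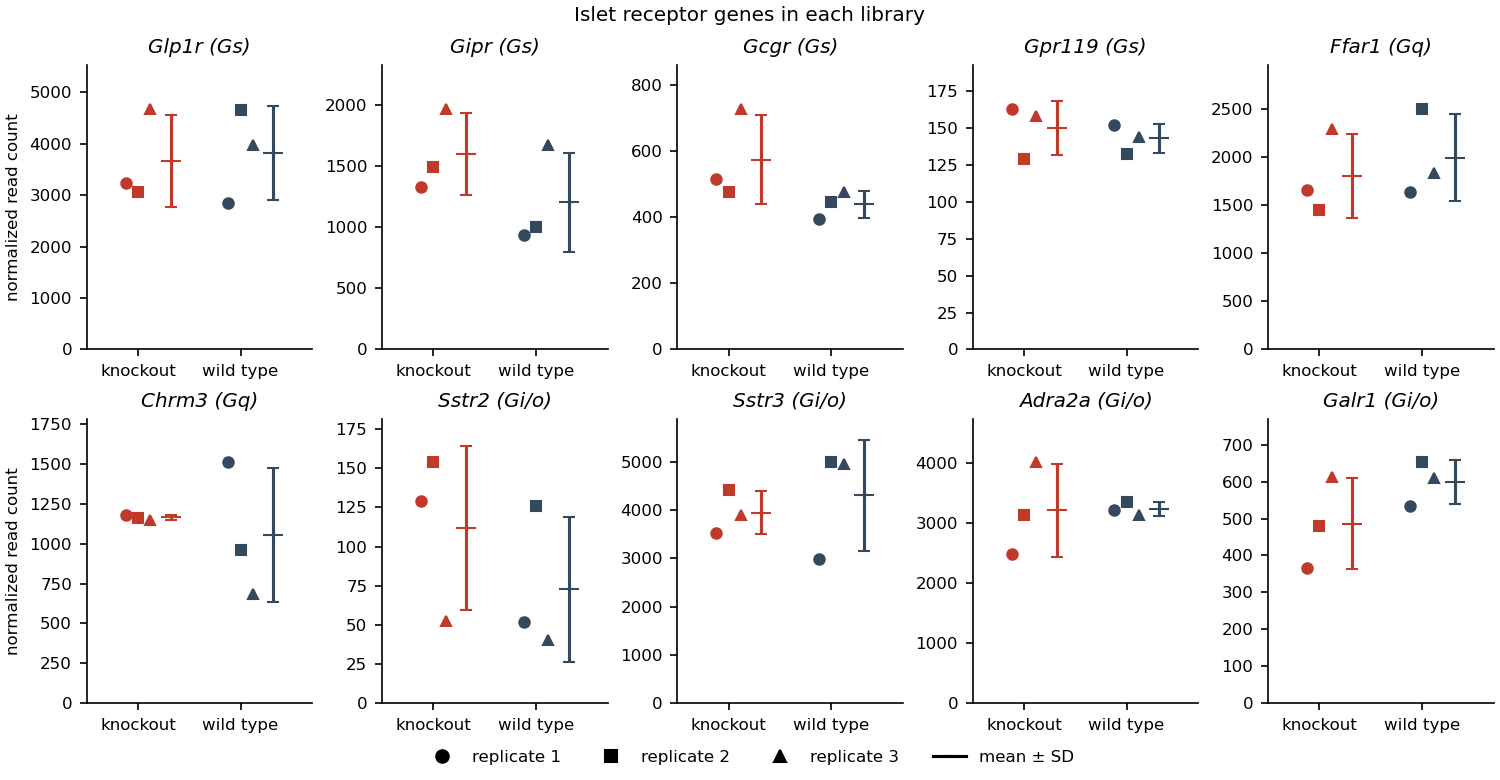
Normalized read count (vertical axes, from 0) of each receptor gene in the 3 knockout libraries (left, red) and the 3 wild type libraries (right, dark), with symbols for replicates and bars for mean ± SD. The G protein class is given beside each name, and only for Gcgr do the points of the 2 genotypes not overlap, with 476.8 as the lowest knockout and 476.6 as the highest wild type value.

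Upstream sequences of 3 receptors are printed because their genes mark the ends of the range seen here. Gcgr was the only receptor whose genotypes did not overlap, Sstr2 varied most between libraries (3.80-fold from lowest to highest) and Gpr119 varied least (1.26-fold). The sequences are those of RefSeq (GRCm38.p6), cut so that they end before the gene start in both RefSeq and GENCODE M21, and each runs 5′ to 3′ on the gene's strand. The build of the authors' alignment is not given in the sources used here. Capitals mark matches, on either strand, to the cyclic AMP response element TGACGTCA, its core TGACG, the GC box GGGCGG or the TATA box TATAAA. The windows are Gcgr at chr11:120530477-120530698 (plus strand), Sstr2 at chr11:113619077-113619326 (plus strand) and Gpr119 at chrX:48674479-48674728 (minus strand).
Gcgr: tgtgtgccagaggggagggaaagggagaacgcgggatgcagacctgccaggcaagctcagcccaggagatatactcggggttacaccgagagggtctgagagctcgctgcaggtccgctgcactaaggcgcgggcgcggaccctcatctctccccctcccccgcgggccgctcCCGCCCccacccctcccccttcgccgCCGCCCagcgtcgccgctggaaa
Sstr2: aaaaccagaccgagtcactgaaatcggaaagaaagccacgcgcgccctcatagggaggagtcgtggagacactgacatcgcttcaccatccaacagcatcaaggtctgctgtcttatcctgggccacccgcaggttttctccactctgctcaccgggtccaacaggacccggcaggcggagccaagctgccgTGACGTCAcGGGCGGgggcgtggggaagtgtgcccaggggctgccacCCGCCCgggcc
Gpr119: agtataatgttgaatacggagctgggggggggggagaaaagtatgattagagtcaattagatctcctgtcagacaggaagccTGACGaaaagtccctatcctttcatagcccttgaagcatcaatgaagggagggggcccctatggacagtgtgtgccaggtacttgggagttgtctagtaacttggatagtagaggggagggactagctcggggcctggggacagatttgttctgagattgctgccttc
In these printed stretches, Sstr2 held 1 full TGACGTCA, which contains the core on both strands, and 2 GC boxes. Gcgr held 2 GC boxes and neither the element nor its core, and Gpr119 held 1 core and no other match.

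Windows of 250 bases before the start were examined for 8 of the 10 receptors, all but Gipr and Galr1. The full element was in 1 of the 8, Sstr2, against 1.55% of all 32851 RefSeq windows of that length. Its core was in 4 of the 8, namely Sstr2, Sstr3, Adra2a and Gpr119, against 17.8% of windows. The GC box was in 4 (Glp1r, Gcgr, Sstr2 and Adra2a), against 32.7%, and the TATA box in 1 (Adra2a), against 12.4%. The GC content of the 8 windows ran from 50.4% for Gpr119 to 73.2% for Glp1r. These matches describe letters in a window and not binding.

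Among receptors coupled to Gs, Gipr and Gcgr averaged higher in knockout islets, and Glp1r and Gpr119 lay near their wild type level. None of the 4 passed the test. Glp1r (chr17:30901817-30940791, plus strand, GRCm38), the receptor of GLP-1 and of the drugs that mimic it, had normalized read counts of 3239, 3058 and 4686 in knockout replicates 1, 2 and 3, against 2843, 4654 and 3979 in wild type replicates 1, 2 and 3. The genotypes overlapped throughout their range, with 1 high knockout library and 1 low wild type library. Mean values were 3661 ± 893 in knockout and 3825 ± 915 in wild type islets (SD, n = 3 each). The log2 fold change was −0.06 (SE 0.23), with a 95% interval of 0.657-fold to 1.40-fold.

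Gipr (chr7:19156061-19166127, minus strand), the receptor of the incretin GIP, had 1323, 1488 and 1966 normalized reads in knockout libraries, against 936, 1002 and 1666 in wild type libraries. Replicate 3 was the highest of its group in both genotypes. The other 2 knockout libraries lay above the other 2 wild type libraries but below wild type replicate 3. Gipr averaged 1592 ± 334 in knockout and 1202 ± 404 in wild type islets (SD, n = 3 each), a log2 fold change of 0.44 (SE 0.25). The interval ran from 0.896-fold to 2.04-fold, and the two-sided exact permutation test of Gipr alone gave p = 0.3. The log2 fold change was 0.27 without knockout replicate 3, 0.28 without wild type replicate 1 and 0.70 without wild type replicate 3.

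Gcgr (chr11:120530699-120538986, plus strand), the glucagon receptor, through which alpha cells can stimulate their beta cell neighbours, had 515, 476.8 and 728 normalized reads in knockout libraries, against 393, 444 and 476.6 in wild type libraries. Knockout replicate 2 and wild type replicate 3 differed by less than 1 normalized read, so the separation was bare. The means were 573 ± 135 in knockout and 438 ± 42.2 in wild type islets (SD, n = 3 each). Its log2 fold change was 0.37 (SE 0.18), with an interval from 0.953-fold to 1.74-fold. The exact permutation test of Gcgr alone gave p = 0.1, the smallest that 3 libraries against 3 allow, and its log2 fold change was 0.18 without knockout replicate 3. Gpr119 (chrX:48667979-48674478, minus strand), a receptor for fatty acid ethanolamides, was steady at 163, 129 and 158 in knockout libraries, against 152, 133 and 144 in wild type libraries. Its log2 fold change was 0.07 (SE 0.18), with an interval from 0.775-fold to 1.41-fold.

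Ratios within a library do not depend on its scaling, and 5 of them were formed after the values had been seen. The permutation p-values given for them are therefore descriptive and cannot count as evidence of a difference between genotypes. The ratio of Gcgr to Glp1r was 0.159, 0.156 and 0.155 in knockout replicates 1, 2 and 3, against 0.138, 0.0955 and 0.120 in wild type replicates 1, 2 and 3. It was nearly constant over the knockout libraries and higher than in every wild type library. How often other genes divided by Glp1r separate the genotypes was not computed, so this separation cannot be read as an excess. The ratio of Gipr to Glp1r was 0.408, 0.487 and 0.420 in knockout libraries, against 0.329, 0.215 and 0.419 in wild type libraries. Here knockout replicate 1 was below wild type replicate 3. The other 3 ratios, Sstr3 to Sstr2, Galr1 to Glp1r and Adra2a to Glp1r, overlapped between genotypes. Exact permutation tests gave p = 0.1 for Gcgr to Glp1r, p = 0.2 for Gipr to Glp1r, p = 0.3 for Sstr3 to Sstr2, p = 0.3 for Galr1 to Glp1r and p = 1 for Adra2a to Glp1r. After Benjamini-Hochberg adjustment over the 5, the first 4 had 0.375 and the last 1.

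Both Gq-coupled receptors overlapped between genotypes. Ffar1 (chr7:30857390-30861564, minus strand), the receptor by which long-chain fatty acids enhance insulin release, had 1663, 1451 and 2294 normalized reads in knockout libraries, against 1642, 2505 and 1840.3 in wild type libraries. A single library stood highest in each genotype, knockout replicate 3 and wild type replicate 2. The log2 fold change was −0.15 (SE 0.22), with an interval from 0.630-fold to 1.29-fold. Chrm3 (chr13:9875486-10360847, minus strand), the muscarinic receptor for acetylcholine from the vagus nerve, had 1180.4, 1163 and 1148 in knockout libraries, against 1508, 962 and 684 in wild type libraries. The knockout libraries were nearly alike, with a coefficient of variation of 1.39%, and all 3 lay inside the wild type range, whose coefficient of variation was 39.8%. The log2 fold change was 0.22 (SE 0.26), with an interval from 0.755-fold to 1.80-fold.

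Among receptors coupled to Gi or Go, Galr1 averaged lower and Sstr2 higher in knockout islets, again with overlapping libraries. Galr1 (chr18:82392380-82406777, minus strand), a receptor of the neuropeptide galanin, had 366, 479 and 612 normalized reads in knockout libraries, against 533, 652 and 609 in wild type libraries. In knockout replicates 1 and 2 Galr1 was lower than in any wild type library, and in knockout replicate 3 it was within the wild type range. Galr1 averaged 485 ± 123 in knockout and 598 ± 60.0 in wild type islets (SD, n = 3 each). The log2 fold change was −0.33 (SE 0.20), with an interval from 0.574-fold to 1.11-fold, and the exact permutation test of Galr1 alone gave p = 0.3. Without knockout replicate 1 the log2 fold change was −0.14, and without knockout replicate 3 it was −0.51.

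Adra2a (chr19:54044151-54048982, plus strand), the adrenergic receptor that halts insulin release under noradrenaline, had 2476, 3138 and 4004 normalized reads in knockout libraries, against 3214, 3352 and 3125 in wild type libraries. The knockout libraries reached both below and above the narrow wild type range, with coefficients of variation of 23.9% in knockout and 3.55% in wild type islets. The means were nearly the same, at 3206 and 3230.3, and the log2 fold change was −0.04 (SE 0.17), with an interval from 0.736-fold to 1.29-fold.

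Both somatostatin receptors described here were present at very different levels. Sstr3 (chr15:78537008-78544685, minus strand), a receptor found on primary cilia, had 3536, 4409 and 3905 normalized reads in knockout libraries, against 2983, 4989.6 and 4953 in wild type libraries. All 3 knockout libraries lay within the wild type range, and the log2 fold change was −0.09 (SE 0.21, interval from 0.660-fold to 1.33-fold). Sstr2 (chr11:113619342-113626028, plus strand), in mouse islets the main somatostatin receptor of alpha cells, had 129, 154 and 52.8 in knockout libraries, against 52.1, 126 and 40.4 in wild type libraries. High and low libraries occurred in both genotypes. Its log2 fold change of 0.65 (SE 0.55) had the widest interval of the 10, from 0.629-fold to 3.92-fold. Leaving out single libraries moved it between 0.32 (without wild type replicate 3) and 1.13 (without wild type replicate 2). Sstr2 rested on 46 to 164 reads per library, where counting alone gives a coefficient of variation of up to 14.7%. Every other receptor had at least 133 reads in each library.

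**Figure D2:**
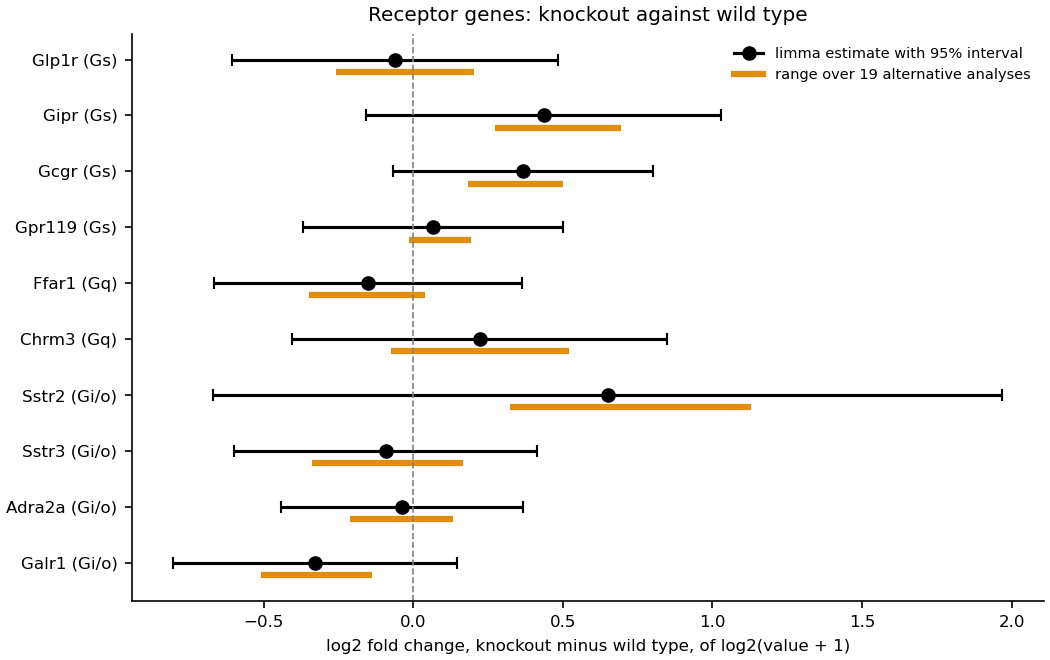
Log2 fold change of each receptor gene, knockout minus wild type (horizontal axis), with the limma estimate and 95% interval in black and, below it in orange, the range of the estimate over 19 alternative analyses. All 10 intervals include 0, and the orange ranges stay on 1 side of 0 for Gipr, Gcgr, Sstr2 and Galr1 only.

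Per kilobase of exon, which makes levels of different genes roughly comparable, Sstr3 was the most abundant of these receptor transcripts in 6 of 6 libraries. The length was that of all annotated exons of a gene merged, and the transcript forms expressed were not determined. The order depends on these lengths. Before division by length, Glp1r was above Sstr3 in knockout replicate 3 (4686 against 3905 normalized reads). Sstr3 had 914 ± 101 normalized reads per kilobase in knockout and 997 ± 266 in wild type islets (SD, n = 3 each). Adra2a followed with 663 ± 159 in knockout and 669 ± 23.7 in wild type islets, and Glp1r with 630.03 ± 154 in knockout and 658 ± 157 in wild type islets. Of these inhibitory receptors, Sstr3 was above the GLP-1 receptor in 6 of 6 libraries and Adra2a in 3 of 6. Ffar1 had 432 ± 105 in knockout and 478 ± 108 in wild type islets, and Gipr had 457 ± 96.0 in knockout and 345 ± 116 in wild type islets. Over all 6 libraries, Gcgr, Galr1 and Chrm3 formed a middle group with means of 193, 181 and 177 normalized reads per kilobase. Gpr119 and Sstr2 were lowest, with means of 64.7 and 43.1. The ranges of neighbours in this order overlapped at every step but the one from Chrm3 to Gpr119.

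**Figure D3:**
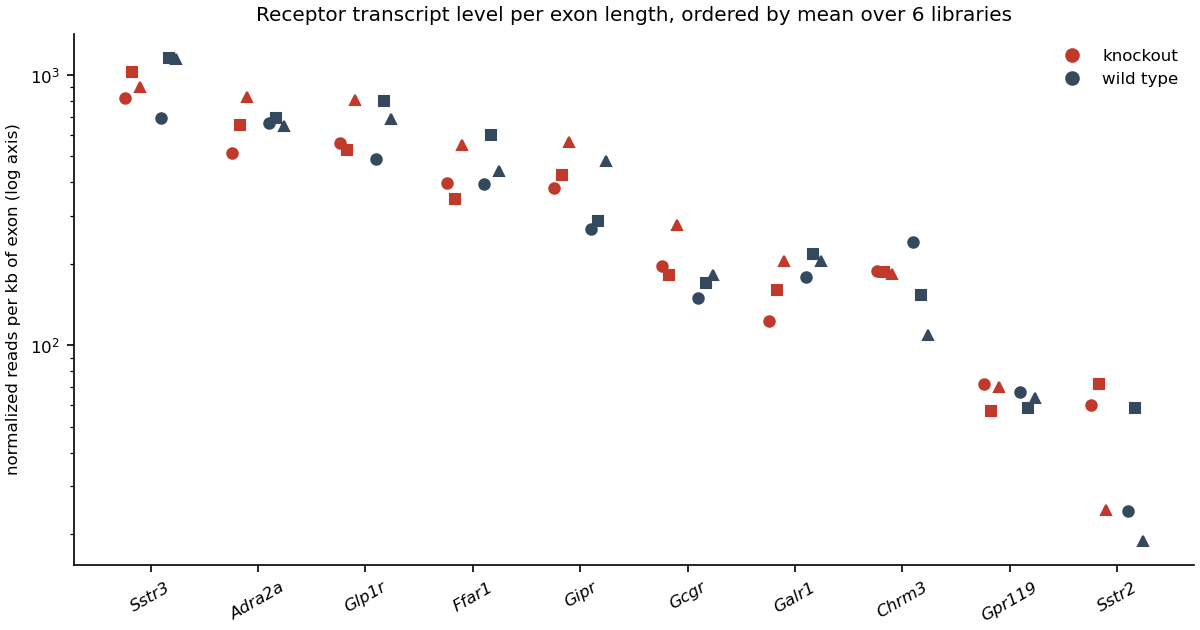
Normalized reads per kilobase of exon (vertical axis, logarithmic) for the 10 receptor genes, ordered by their mean over 6 libraries, with knockout libraries in red on the left and wild type libraries in dark on the right of each gene. Sstr3 is highest in every library, and a gap separates the 8 upper genes from Gpr119 and Sstr2.

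The receptors differed in which cell type markers they moved with from library to library, a description over 6 libraries that share their scaling and carry unequal acinar amounts. In all, 110 pairs of receptor and marker list were computed. Sstr2 followed the 12 alpha cell genes (Pearson r = 0.925, Spearman rho = 0.943, r = 0.958 without the 2 libraries farthest from the median alpha level). Sstr2 also rose with the duct genes (r = 0.818, rho = 0.829, r = 0.873 without the 2 farthest libraries). With the endothelial genes r was 0.760 and rho 0.829, and r was 0.308 without the 2 farthest libraries. The alpha level was 10.28, 10.63 and 9.83 in knockout libraries, against 9.91, 10.15 and 9.75 in wild type libraries. The 3 libraries of highest alpha level were the 3 of highest Sstr2.

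Adra2a ran against the acinar genes (r = −0.912, rho = −0.829, r = −0.810 without the 2 farthest libraries). So did Galr1 (r = −0.902, rho = −0.943, r = −0.941), Ffar1 (r = −0.851, rho = −0.771, r = −0.9996) and Glp1r (r = −0.832, rho = −0.771, r = −0.898). The mean log2 level of the acinar genes was 15.92, 14.65 and 11.32 in knockout replicates 1, 2 and 3, against 14.01, 12.001 and 13.43 in wild type replicates 1, 2 and 3. Knockout replicate 3, lowest in acinar genes, had the highest knockout value of 6 of the 10 receptors. Galr1 also tracked the 15 beta cell genes (r = 0.874, rho = 0.829, r = 0.832) and ran against the 15 immediate early genes (r = −0.979, rho = −0.829, r = −0.822). The immediate early level was 11.56, 10.87 and 10.01 in knockout libraries, against 10.24, 9.77 and 9.68 in wild type libraries. Chrm3, which acinar cells also use, followed the lymphocyte genes (r = 0.853, rho = 0.943, r = 0.675) more than the acinar genes (r = 0.241, rho = 0.600, r = 0.410). The lymphocyte genes were not tied to Chrm3 alone. Sstr3 ran against them (r = −0.882, rho = −0.943, r = −0.678), as did Glp1r (r = −0.806, rho = −0.771, r = −0.884).

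**Figure D4:**
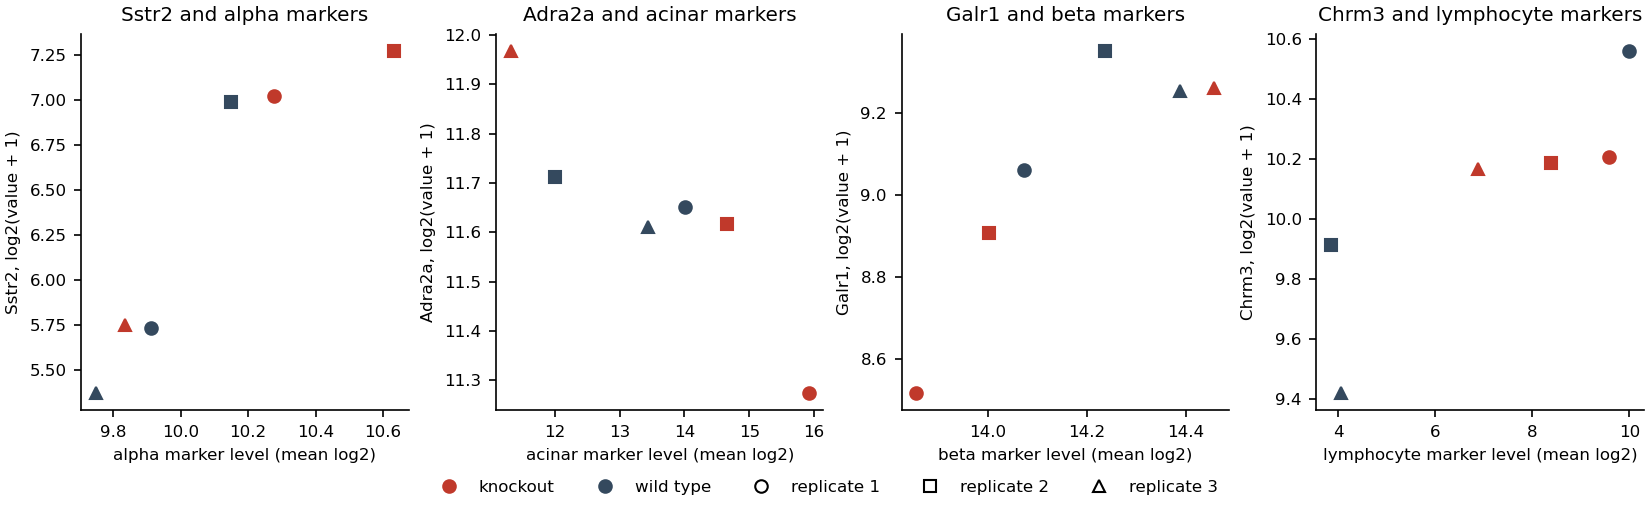
Log2(value + 1) of 4 receptor genes (vertical axes) against the mean log2 level of a marker list (horizontal axes) in the 3 knockout libraries (red) and 3 wild type libraries (dark). Sstr2 is higher in libraries with more alpha markers (r = 0.925), Adra2a is lower in those with more acinar markers (r = −0.912), Galr1 is higher with more beta markers (r = 0.874) and Chrm3 with more lymphocyte markers (r = 0.853).

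Set against the beta cell genes of the same library, Gipr and Gcgr were separated between genotypes. The reference was the mean log2 level of 12 beta cell genes without the hormones, at 12.52, 12.72 and 13.19 in knockout replicates 1, 2 and 3, against 12.79, 12.95 and 13.07 in wild type replicates 1, 2 and 3. On this scale Gipr stood at −2.15, −2.18 and −2.25 in knockout libraries, against −2.92, −2.98 and −2.37 in wild type libraries. Gcgr stood at −3.51, −3.82 and −3.68 in knockout libraries, against −4.17, −4.15 and −4.17 in wild type libraries. Every knockout library was above every wild type library for both genes. Of the 10 receptors, 2 did not overlap on this scale, against 4.38% of all genes. Without this scaling 1 of the 10 did not overlap, against 9.08% of all genes. The receptors were chosen with earlier results of these data known, so these shares cannot be read as an excess. The differences were 0.56 for Gipr and 0.49 for Gcgr on the log2 scale, where the scaling moved the median of all genes to 0.12. Limma gave an adjusted p of 0.9999 for each. Over all alternatives it ran from 0.711 to 0.9999 for Gipr and from 0.721 to 0.9999 for Gcgr. Over all 6 libraries the marker list with the largest correlation was that of the Schwann and nerve genes (r = −0.777 and rho = −0.714 for Gipr, r = −0.794 and rho = −0.600 for Gcgr), and r was −0.181 and 0.236 without the 2 farthest libraries. That list's level was 6.16, 5.32 and 4.99 in knockout libraries, against 7.08, 5.96 and 6.07 in wild type libraries, and its part in these results was not tested.

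Some receptors varied together. Of 45 pairs among the 10, Glp1r and Ffar1 had the highest correlation over the 6 libraries (r = 0.925, rho = 0.886), and within genotypes it was 0.936. Without the 2 libraries farthest from the median Glp1r level r was 0.725. Gipr and Gcgr had r = 0.825 and rho = 0.771, and r = 0.487 without the 2 farthest libraries. For Adra2a and Galr1 r was 0.819 and rho 0.771, and r was 0.589 without the 2 farthest libraries. Sstr3 and Chrm3 ran against each other (r = −0.845, rho = −0.886, r = −0.800 without the 2 farthest libraries).

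Among 272 other genes of the peptide, signalling and marker lists, the one most like a receptor over the 6 libraries was found by Pearson r, and it is given for 9 of the 10. For Glp1r and Ffar1 it was the same gene, Ffar3, a receptor for short-chain fatty acids (r = 0.973 and 0.957). Gipr was most like Plvap, a gene of fenestrated endothelium (r = 0.918). Sstr2 was most like the alpha cell factor Irx2 (r = 0.952), and Galr1 most like the beta cell factor Nkx6-1 (r = 0.986). Sstr3 paired with the adenylyl cyclase Adcy6 (r = 0.982). Adra2a paired with the calcium-sensing receptor Casr (r = 0.975, but 0.112 without the 2 farthest libraries). Chrm3 was most like the sphingosine phosphate receptor S1pr1 (r = 0.959) and Gpr119 most like the somatostatin receptor Sstr1 (r = 0.936). Without the 2 libraries farthest from the receptor's median, r was 0.956 for Glp1r, 0.699 for Ffar1, 0.744 for Gipr and 0.750 for Chrm3. It was 0.902 for Sstr2, 0.868 for Galr1, 0.995 for Sstr3 and 0.888 for Gpr119. With 6 libraries and so many genes, high values are easily reached.

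Islet and nerve peptides were measured in the same libraries, among them some that act on these receptors (glucagon, somatostatin and galanin) and others that do not (Pyy, Ppy, Npy, Vip and Ghrl). Of 11 such genes listed, 8 were tested, 5 higher and 3 lower, with a median log2 fold change of 0.32, and 0 were called in either direction. An unadjusted p under 0.05 was reached by 2 of the 8, against 3.08% of all genes. The list was chosen with earlier results of these data known, so this share cannot be read as an excess. Gcg, whose product gives both glucagon and GLP-1, had 306202, 635081 and 223263 normalized reads in knockout libraries, against 196522, 344316 and 157662 in wild type libraries, with overlap between genotypes and a log2 fold change of 0.67 (SE 0.62) that was 0.25 without knockout replicate 2. Pyy and Ppy, peptide hormones of PP cells that are not ligands of these receptors, differed by 0.61 (SE 0.20) and 0.44 (SE 0.18) on the log2 scale. Each was higher in all 3 knockout libraries than in any wild type library. Both belong to the delta and PP marker list. That list's mean log2 level was 10.76, 11.35 and 10.83 in knockout libraries, against 10.68, 10.64 and 10.25 in wild type libraries. The part of these cells in the Pyy and Ppy values was not tested. Of the 8 tested genes, 2 did not overlap between genotypes, against 9.08% of all genes. Vip, a peptide of islet nerves, had −1.80 (SE 1.51), which ran from −3.27 without wild type replicate 2 to −0.59 without wild type replicate 1. For these 3 the adjusted p was 0.993 each.

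In the Gs and cyclic AMP branch no gene passed the test. Of its 27 tested genes 12 were higher and 15 lower, with a median log2 fold change of −0.04, 0 called higher and 0 called lower. At an unadjusted p under 0.05 there were 0 of the 27, against 3.08% of all genes. The smallest p belonged to Pde1c, a cyclic nucleotide phosphodiesterase (0.56, SE 0.26), Rapgef4, the cyclic AMP sensor Epac2 (−0.29, SE 0.14), and the adenylyl cyclase Adcy3 (−0.34, SE 0.21). The value of Adcy3 was −0.14 without wild type replicate 1 and −0.53 without wild type replicate 2. Rapgef4 had 3145, 2698 and 3793 normalized reads in knockout libraries, against 3672, 4096 and 3922 in wild type libraries, and only knockout replicate 3 overlapped the wild type range.

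The Gq, phospholipase C and calcium branch had 22 tested genes, 13 higher and 9 lower, with a median of 0.05, and 0 were called in either direction. Of the 22, 3 had an unadjusted p under 0.05, against 3.08% of all genes. This list too was chosen with earlier results of these data known, so its share cannot be read as an excess. Trpm5, a calcium-activated cation channel, was at 1247, 2223 and 1712 in knockout libraries, against 668, 1189 and 975 in wild type libraries, so the genotypes did not overlap (0.87, SE 0.27, adjusted p = 0.993). Dgkb, a diacylglycerol kinase (0.68, SE 0.27), was also separated, and Prkd1, protein kinase D1 (−0.37, SE 0.14), overlapped. Of the 22 genes, 2 did not overlap between genotypes, close to the 9.08% of all genes.

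In the Gi/o branch, 6 of 17 tested genes were higher and 11 lower, with a median of −0.01, and 0 were called in either direction. Gnai1, an inhibitory alpha subunit, had 0.78 (SE 0.38), Gnb1, a beta subunit, −0.12 (SE 0.09), and Gnai2 0.18 (SE 0.14). The value of Gnai1 was 0.42 without wild type replicate 1 and 1.182 without wild type replicate 2. None of the 17 had an unadjusted p under 0.05, against 3.08% of all genes. Receptor kinases, arrestins, RGS proteins and receptor partners came to 24 tested genes, 12 higher and 12 lower, with a median of −0.03. Among them 0 were called in either direction and 2 had an unadjusted p under 0.05, against 3.08% of all genes. Of the 24, 1 (Ramp1) did not overlap between genotypes, against 9.08% of all genes. This list was likewise chosen with earlier results of these data known, so its shares cannot be read as an excess. Rgs3, which speeds the switching off of G proteins, had −0.48 (SE 0.18), Ramp1, a receptor activity-modifying protein, 0.46 (SE 0.18), and Reep5, an endoplasmic reticulum shaping protein, −0.16 (SE 0.09).

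Other islet G protein-coupled receptors numbered 51 tested genes of 60 in the table, 26 higher and 25 lower, with a median of 0.01. Among them 0 were called in either direction and 1 had an unadjusted p under 0.05, against 3.08% of all genes. Adora2b, an adenosine receptor, was at 512, 289 and 321 in knockout libraries, against 241, 255 and 210.1 in wild type libraries, without overlap (0.62, SE 0.24, adjusted p = 0.993). Of the 51 genes, 2 did not overlap between genotypes, in opposite directions, against 9.08% of all genes. The endothelin receptors Ednra and Ednrb had 0.87 (SE 0.40) and 0.33 (SE 0.17), and that of Ednra was 0.47 without knockout replicate 1. The endothelial marker level was 10.01, 9.84 and 9.78 in knockout libraries, against 9.47, 9.72 and 9.48 in wild type libraries, and its part in these values was not tested.

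**Figure D5:**
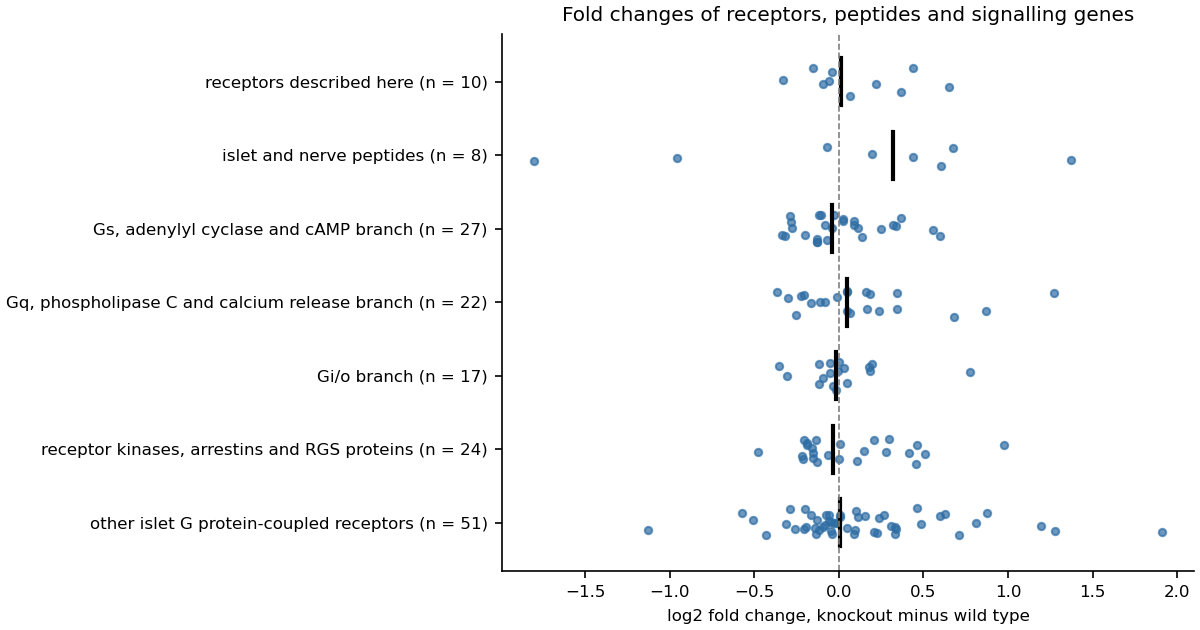
Log2 fold change, knockout minus wild type (horizontal axis), of each tested gene (points) in the 10 receptors described here and in 6 lists of peptide, signalling and receptor genes, with a black bar at each list's median. The medians of the receptors and of the 5 signalling and receptor lists lie between −0.04 and 0.05, and that of the peptides lies at 0.32.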

How the data were processed

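Islet RNA from 6 mouse libraries was sequenced, 3 per genotype, and groups and replicate numbers came from the labels. The aligner was HISAT2, per the submitters' processing notes. Genome build, strand setting, counting tool and aligner version were not given in the sources used here. The deposited signal values are gene counts divided by 1 size factor per library: all values (100%) were whole multiples of a step between 0.879 and 1.23, within 0.01 reads, and these factors equalled those that DESeq2 computes from the reads. No value was 0, so genes silent in any library are not analysed here.

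The filter required values of 10 or more in 3 or more libraries, and 2395 genes did not meet it. Limma 3.58.1 in R 4.3.3 fitted log2(value + 1) with a trended variance. Its two-sided p-values were adjusted over all kept genes by Benjamini-Hochberg, with a threshold of 0.05. Fold changes on this scale understate the change of low genes. The alternatives included edgeR 4.0.16 and DESeq2 1.42.0 on recovered reads, and the script was tested on simulated data. Exon lengths and positions are from GENCODE M21 (GRCm38), which held 18106 of 18437 symbols. None of the 10 receptors shared exon sequence positions with another annotated gene.

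The receptors, gene lists and tests were chosen with earlier results of these data known. Genes named beside the receptors were the 3 of smallest p in each list, the most alike gene per receptor (that of Gcgr is not reported here), Sec16b, Ins1, Ins2 and Gcg. The marker lists were compared between genotypes by two-sided exact permutation of the mean log2 level. The differences were −0.13 for beta, 0.31 for alpha, 0.46 for delta and PP, 0.82 for acinar, 0.46 for duct, 2.31 for lymphocyte, 0.11 for macrophage, 0.32 for endothelial, −0.10 for stellate, −0.88 for Schwann and nerve and 0.91 for immediate early genes. The lowest permutation p was 0.1, for the delta and PP list and for the endothelial list (0.55 adjusted over the 11 lists). Replicates of a genotype differed far beyond counting noise, with a chi-square per degree of freedom of at least 49.9.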

Additional observations from a re-analysis of the deposited data

How the results depend on the processing

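Limma called 0 genes in each of its alternatives and edgeR called 0 (509 at an unadjusted p under 0.05). DESeq2 called 12 genes, among them 0 of the 8 receptors with a defined adjusted p, and left 7882 adjusted p-values undefined, those of Sstr2 and Gpr119 included. Receptors with an unadjusted p under 0.05 numbered 2 with scaling by beta cell genes (Gipr, Gcgr; 1.37% of all genes), 2 with the replicate block (Gipr, Gcgr; 5.39%), 1 with the acinar covariate (Gcgr; 2.90%), 2 with the lymphocyte covariate (Gipr, Gcgr; 5.73%) and 0 to 2 with single libraries left out. Those libraries were knockout replicate 2 (Gcgr, 2.36% of all genes), knockout replicate 3 (Galr1, 7.03%), wild type replicate 1 (Sstr3 and Chrm3, 4.46%) and wild type replicate 3 (Gipr, 2.75%). Of 190 receptor estimates 171 kept their sign, those of Gipr, Gcgr, Sstr2 and Galr1 in every alternative. The sign turned as follows. Scaling by beta cell genes gave 0.067 for Glp1r, 0.036 for Sstr3, 0.090 for Adra2a, 0.011 for Gnb1, 0.0035 for Ins1 and 0.014 for Ins2. Array weights gave −0.016 for Gpr119. The acinar covariate gave 0.070 for Glp1r and 0.064 for Adra2a. The lymphocyte covariate gave 0.20 for Glp1r, 0.038 for Ffar1, 0.17 for Sstr3, 0.044 for Adra2a, −0.076 for Chrm3, 0.024 for Ins1 and 0.011 for Ins2. With single libraries left out, Glp1r ran from −0.26 to 0.096, Ffar1 from −0.34 to 0.025, Sstr3 from −0.34 to 0.033, Adra2a from −0.21 to 0.13, Chrm3 from −0.050 to 0.52, Ins1 from −0.26 to 0.036 and Ins2 from −0.25 to 0.032. The marker differences ran from −0.16 to 2.14 for acinar, −0.17 to 0.53 for macrophage and −0.48 to 0.26 for stellate genes. The cause was not tested. Deviations of same-numbered libraries correlated at 0.430, 0.0037 and 0.365, and those of differently numbered libraries at −0.413 to 0.199. The labels do not say that a replicate number marks a shared animal, litter or day, so the main fit had no replicate block. Depth limits Sstr2 most, at 46 reads in its lowest library.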
